A study of Homo sapiens with 6 samples.

Results

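The 47 genes described here encode the chaperones, folding enzymes, stress sensors, degradation factors, translocon subunits, COPII coat proteins and retrieval receptors of the endoplasmic reticulum (ER). They were taken by symbol from the 23346 genes of the deposited count table, by a rule that uses no measured value, though the list was drawn up with earlier results of these data known. All 47 were among the 12186 genes that passed the filter on low counts, so each was tested. They were measured in BT549, an established mesenchymal-like breast cancer cell line labelled as wild type. Cells received 20 nM of either a negative control siRNA (NC siRNA) or a mix of 3 siRNAs against BNC2 (BNC2 siRNA), and RNA was prepared 6 d later. BNC2 encodes basonuclin-2, a zinc finger protein, and the comparison asks which genes depend on it. Each group held 3 libraries, which the methods call biological replicates, and no untransfected cells were analysed here. The siRNAs of the mix were not analysed separately here, so no effect can be assigned to 1 of them.

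Secreted and membrane proteins enter the ER through the SEC61 channel, fold with the help of chaperones and disulphide-forming enzymes, and leave in vesicles coated with COPII. Proteins that fail to fold are sent back to the cytosol for destruction, a route called ER-associated degradation (ERAD). When unfolded proteins accumulate, the sensors ERN1 (IRE1), ATF6 and EIF2AK3 (PERK) start the unfolded protein response (UPR), which raises chaperone and ERAD gene transcription. Mesenchymal cells that lay down collagen place a heavy load on this route, because procollagen is large and needs dedicated loading into COPII carriers.

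The UPR acts in part through short promoter sequences. These are the ER stress response element (ERSE, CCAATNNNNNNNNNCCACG), which binds ATF6 and XBP1 together with NF-Y, the ERSE-II (ATTGGNCCACG) and the core of the UPR element (UPRE, TGACGTGG). Each was searched on both strands, without mismatches, in RefSeq promoters (assembly GRCh38.p14) that run from 250 bases before to 50 bases after a start. An entry was found for 42 members, and PDIA3, DERL1, DERL3, SEC24D and KDELR2 had none. The ERSE lay in 7 of the 42 members (16.7%) and in 25 of the 27305 genes with a promoter entry. The ERSE-II lay in 3 members (7.1%) and 19 of these genes, and the UPRE in 5 members (11.9%) and 253 of these genes. A gene can have several entries. Counted by entry, the 3 motifs lay in 0.077%, 0.054% and 0.729% of the 35116 promoters of all genes. The windows below are those of members whose values are described in detail. They are given 5′ to 3′ along the gene's strand with the motif, or its reverse complement, in capitals. They were located in GRCh37, the assembly of hg19, by exact match. Positions count from the RefSeq start base as 0, so that negative positions lie upstream.
HSPA5, ERSE at -66 to -48, chr9:128003665-128003693, minus strand: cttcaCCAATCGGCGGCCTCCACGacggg
XBP1, ERSE at -52 to -34, chr22:29196586-29196614, minus strand: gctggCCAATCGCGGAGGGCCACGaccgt
CALR, ERSE in reverse complement at -225 to -207, chr19:13049193-13049221, plus strand: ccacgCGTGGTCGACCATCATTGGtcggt
HYOU1, ERSE-II in reverse complement at -79 to -69, chr11:118927980-118928000, minus strand: tgggaCGTGGTCCAATgagta
HYOU1, ERSE-II in reverse complement at -185 to -175, chr11:118928086-118928106, minus strand: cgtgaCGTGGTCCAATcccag
SDF2L1, ERSE-II in reverse complement at -188 to -178, chr22:21996398-21996418, plus strand: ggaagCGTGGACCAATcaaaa
HERPUD1, ERSE-II at -117 to -107, chr16:56965932-56965952, plus strand: cgccgATTGGGCCACGttggg
SEC24A, UPRE at -179 to -172, chr5:133984291-133984308, plus strand: gtcggTGACGTGGcggcg
SEC23A, UPRE at -4 to 3, chr14:39572431-39572448, minus strand: cctctTGACGTGGcagag
KDELR3, UPRE in reverse complement at -46 to -39, chr22:38864050-38864067, plus strand: cctggCCACGTCAccgcc
HYOU1 also holds a UPRE at -188 to -181, which overlaps its upstream ERSE-II. The other members with an ERSE were HSP90B1, with 2 of them, CRELD2, CANX and PDIA6, and the other member with a UPRE was TXNDC5. A match shows only that the letters are present in this window.

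The libraries held 16093978 to 18246254 counts on genes. In CPM, the counts of a gene per 1000000 of its library after scaling, BNC2 itself (chr9:16409501-16870841, minus strand, GENCODE release 44 on GRCh37, as for the gene extents below) stood at 65.6, 51.5 and 58.6 with NC siRNA and at 35.5, 36.6 and 41.6 with BNC2 siRNA, which left 64.6% of the control level (log2 fold change -0.63 ± 0.09 SE, adjusted p = 8.2e-06). Here and below SE is the standard error of the log2 fold change, and tests are edgeR's quasi-likelihood test over 12186 genes. Calls were made where the p-value, adjusted by the Benjamini-Hochberg method, did not exceed 0.05. The mesenchymal markers VIM, FN1, ZEB1, CDH2 and SPARC were all present, with a sum of 6367 to 6461 CPM with NC siRNA and 6501 to 6755 CPM with BNC2 siRNA. All 5 were called, with log2 fold changes of 0.18 for VIM, 0.39 for FN1, 0.34 for ZEB1, 1.36 for CDH2 and -0.52 for SPARC. Of the 5 epithelial markers, EPCAM and ESRP1 were at 0 in every library and CDH1 reached 1 count. The summed epithelial level, almost all of it KRT18, was 3.67 to 5.63 CPM with NC siRNA and 0.338 to 0.698 CPM with BNC2 siRNA, and its part in the results was not tested. The sum of 4 markers of immune and endothelial cells was 1.74 to 2.37 CPM and 0.903 to 1.28 CPM, respectively, with CDH5 at 0 in every library. In RNA from a whole culture, fewer cells making a transcript and less of it per cell cannot be told apart.

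Of the 47 members, 26 (55.3%) were called higher with BNC2 siRNA and 10 (21.3%) lower, while 11 were not called. Over all genes tested, 72.9% were called, 36.6% higher and 36.2% lower, so the share of members called in either direction (76.6%) was near the background. The median log2 fold change was 0.21 over the members, ranging from -1.29 to 1.46, and 0.00 over all genes tested. The 3 BNC2 siRNA libraries lay above all 3 NC siRNA libraries for 26 members and below them for 10, against 37.7% and 37.2% of all genes. The share of members called higher was thus above that of all genes and the share called lower was below it, while no test of the list was made. A called log2 fold change of at least 0.58 was found for 12 members (19.1% of all genes) and one of at most -0.58 for 4 (19.5%). Summed over the members, the level was 12227, 12341 and 12429 CPM with NC siRNA and 14821, 15284 and 14907 CPM with BNC2 siRNA, a ratio of 1.22. The transcripts of these 47 genes thus made up 1.26% to 1.27% of the counts of an NC siRNA library and 1.44% to 1.48% of those of a BNC2 siRNA library.

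**Figure D1:**
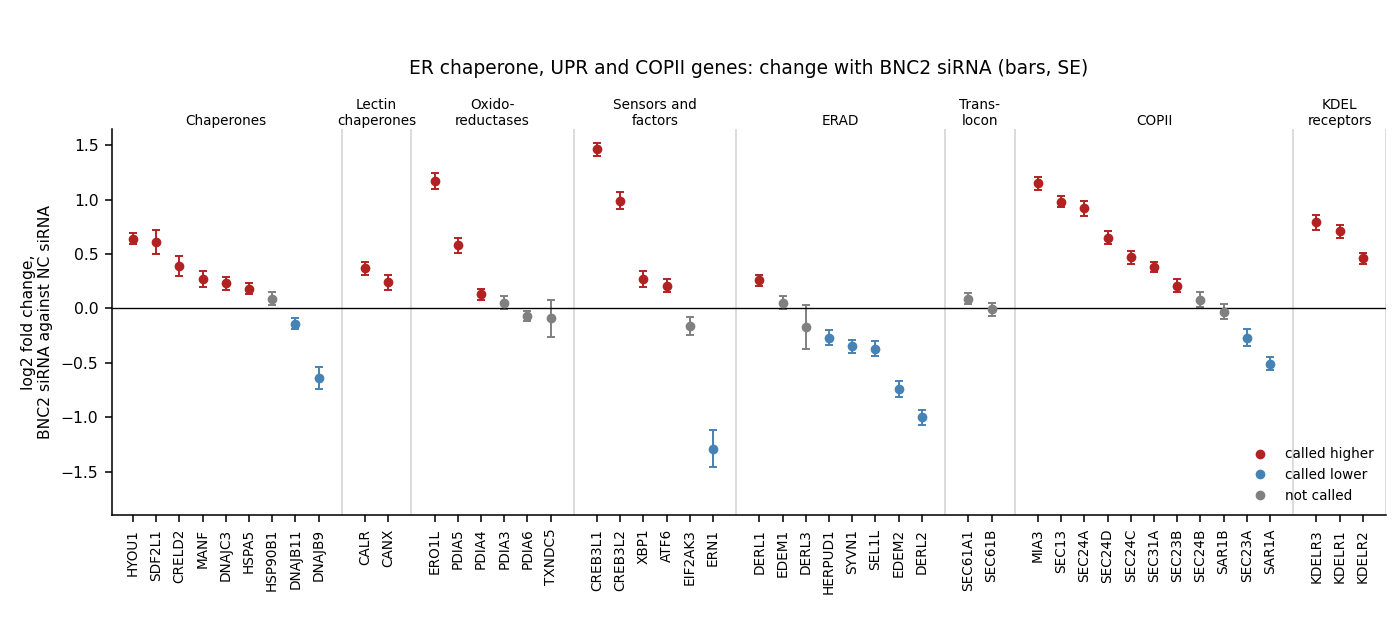
The vertical axis gives the log2 fold change of BNC2 siRNA against NC siRNA and the bars its standard error, for each of the 47 members grouped by role (red, called higher; blue, called lower; grey, not called). Points of the COPII and KDEL receptor groups lie mostly above 0, with medians of 0.38 and 0.71, and those of the ERAD group mostly below, with a median of -0.31.

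Of the 9 chaperones and cochaperones, 6 rose (66.7%, against 36.6% of all genes) and 2 fell (22.2%, against 36.2%), and their median log2 fold change was 0.23. HSPA5 (BiP), the Hsp70 of the ER lumen and the usual readout of UPR activity, was measured at 1340, 1429 and 1422 CPM with NC siRNA and at 1534, 1624 and 1574 CPM with BNC2 siRNA. The groups did not overlap, but the rise was small at 1.13-fold (log2 fold change 0.18 ± 0.05 SE, adjusted p = 0.0081). It missed the threshold under scaling by total counts alone (log2 fold change 0.10, adjusted p = 0.097, against 0.00075 to 0.097 over all alternatives). HYOU1, a large Hsp70-like chaperone that exchanges nucleotide on BiP, showed the largest chaperone rise. Its values were 514, 504 and 505 CPM with NC siRNA and 783, 793 and 791 CPM with BNC2 siRNA, 1.55-fold higher (log2 fold change 0.64 ± 0.05 SE, adjusted p = 8.9e-09). SDF2L1, a BiP-associated protein that keeps unfolded clients soluble, was far less abundant, at 9.91, 11.8 and 12.0 CPM and then 19, 16.9 and 15.5 CPM. It rose 1.53-fold (log2 fold change 0.61 ± 0.11 SE, adjusted p = 0.00012) and its groups were separate. Smaller rises were found for the cysteine-rich CRELD2 (0.39), the secreted ER factor MANF (0.27) and DNAJC3 (p58IPK, 0.23), all as log2 fold changes. The value of MANF rests in part on NC siRNA replicate 1, without which it was 0.16 and still called.

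The J-domain cochaperones did not move in 1 direction. DNAJB9 (ERdj4), which delivers clients to BiP and holds BiP on IRE1, fell from 21.7, 19.6 and 20.7 CPM to 12.7, 12.4 and 14.9 CPM. All 3 BNC2 siRNA libraries lay below the NC siRNA libraries, 1.55-fold lower on average (log2 fold change -0.64 ± 0.10 SE, adjusted p = 2.4e-05). DNAJB11 (ERdj3) was also called lower, at 187 ± 2.95 CPM (SD, n = 3) against 170 ± 6.13 CPM (log2 fold change -0.14, adjusted p = 0.033). That call was lost in 5 of 14 alternatives, among them the fit that left out NC siRNA replicate 2 (-0.15) and those that left out replicate 1 (-0.12) or 3 (-0.12) of BNC2 siRNA. HSP90B1 (GRP94), the Hsp90 of the ER, was not called and its groups overlapped (1148 ± 54.5 CPM and 1225 ± 39.9 CPM, log2 fold change 0.09, adjusted p = 0.14).

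Both lectin chaperones, which bind the trimmed sugars of new glycoproteins, were called higher, where 36.6% of all genes were. CALR (calreticulin), the soluble one, had the highest level per kilobase of transcript of all members, at 1022 CPM per kb with NC siRNA. It was measured at 1789, 1997 and 2043 CPM with NC siRNA and at 2577, 2547 and 2420 CPM with BNC2 siRNA. The separate groups gave a rise of 1.29-fold (log2 fold change 0.37 ± 0.06 SE, adjusted p = 3.5e-05). CANX (calnexin), the membrane-bound one, was called at a log2 fold change of 0.24 (± 0.07 SE, adjusted p = 0.0041). One NC siRNA library, at 1673 CPM, lay above the lowest BNC2 siRNA library, at 1665 CPM.

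The 6 oxidoreductases form and shuffle disulphide bonds, and 3 of them were called higher and none lower. Of all genes, 36.6% were called higher and 36.2% lower. The share called, 50%, was below the 72.9% of all genes, and the median log2 fold change was 0.09. ERO1L (now ERO1A), the oxidase that passes disulphides to protein disulphide isomerases, had the largest rise of the group. Its values were 73.3, 77.1 and 69.0 CPM with NC siRNA and 151, 162 and 180.3 CPM with BNC2 siRNA (2.25-fold, log2 fold change 1.17 ± 0.07 SE, adjusted p = 2.8e-10). PDIA5 rose 1.50-fold, from 30.4, 31.4 and 30.9 CPM to 48.2, 46.8 and 43.8 CPM (log2 fold change 0.58 ± 0.07 SE, adjusted p = 1.7e-06). For both genes every BNC2 siRNA library lay above every NC siRNA library. The more abundant isomerases among the members differed by little. Outside the 47, P4HB, also an isomerase, was called higher (698 ± 45.2 CPM and 1040 ± 42.2 CPM, log2 fold change 0.58, adjusted p = 2.1e-07). PDIA4 was at 392 ± 12.1 CPM and 428 ± 8.56 CPM (log2 fold change 0.13, adjusted p = 0.04), a call lost in 9 of 14 alternatives, including each of the 6 that left out a library, with log2 fold changes from 0.09 to 0.14 there. PDIA3 (ERp57), the partner of the lectin chaperones, was at 751 ± 15.5 CPM and 775 ± 45.7 CPM (log2 fold change 0.05, adjusted p = 0.48). PDIA6 was not called (log2 fold change -0.07, adjusted p = 0.25), though its BNC2 siRNA libraries, at 363 to 368 CPM, lay just below its NC siRNA libraries, at 380.4 to 386 CPM. Under scaling by total counts alone (-0.14, adjusted p = 0.019) and with both strands counted (-0.13, adjusted p = 0.033), PDIA6 was called lower. TXNDC5 was listed at 58 to 73 counts a library and was not called (log2 fold change -0.09 ± 0.17 SE). Its value is uncertain, since 90.5% of its transcript is shared with a read-through gene on the same strand, and reads on 2 genes were not counted.

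The 3 sensors of the UPR went separate ways. ERN1, the kinase and RNase that splices XBP1 mRNA (chr17:62116440-62208179, minus strand), was the member with the largest fall. It was low throughout, at 8.22, 9.75 and 7.34 CPM with NC siRNA (122 to 174 counts) and at 3.20, 2.82 and 4.39 CPM with BNC2 siRNA (50 to 69 counts). The groups did not overlap, and the level was 2.45-fold lower (log2 fold change -1.29 ± 0.17 SE, adjusted p = 4.6e-06). ATF6, the precursor of a transcription factor freed by cleavage in the Golgi, was measured at 74.9, 74.3 and 69.6 CPM and then at 84.4, 84.5 and 84.7 CPM. This was a rise of 1.16-fold (log2 fold change 0.21 ± 0.06 SE, adjusted p = 0.0044), which missed the threshold under the same scaling (0.14, adjusted p = 0.063, against 0.0014 to 0.063 over all alternatives). EIF2AK3, the kinase that slows translation, was at 41.2, 41.5 and 36.3 CPM with NC siRNA and at 34.5, 35.7 and 36.5 CPM with BNC2 siRNA. Its groups overlapped through the third NC siRNA library, and it was not called (log2 fold change -0.16 ± 0.08 SE, adjusted p = 0.071). Without that library it was called (log2 fold change -0.24, adjusted p = 0.015, against 0.014 to 0.19 over all alternatives).

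Among the transcription factors, XBP1 rose modestly and CREB3L1 and CREB3L2 strongly. XBP1, the target of ERN1, was measured at 37.7, 38.9 and 39.8 CPM with NC siRNA and at 49.4, 43.8 and 47.4 CPM with BNC2 siRNA (1.21-fold, log2 fold change 0.27 ± 0.07 SE, adjusted p = 0.0027). Gene counts do not separate its spliced from its unspliced mRNA, nor cleaved from intact ATF6. CREB3L1 (OASIS), an ER-bound factor known to drive collagen and secretory genes in bone cells, had the largest rise of all members (chr11:46299213-46342959, plus strand). It stood at 89.2, 86.4 and 99.6 CPM and then at 252, 256 and 248 CPM, with no overlap (2.74-fold, log2 fold change 1.46 ± 0.06 SE, adjusted p = 4.1e-12). Its relative CREB3L2 (BBF2H7), known for driving SEC23A in cartilage, went from 31.3, 26.4 and 25.6 CPM to 52.6, 57.3 and 55.3 CPM (1.98-fold, log2 fold change 0.99 ± 0.08 SE, adjusted p = 1.6e-08). Per kilobase of transcript, CREB3L1 was the more abundant of the pair with a share of 88.8% to 91.6% in NC siRNA libraries and 92.5% to 93.0% in BNC2 siRNA libraries. Their sum was 38.1 ± 2.4 CPM per kb and 101.6 ± 1.5 CPM per kb.

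**Figure D2:**
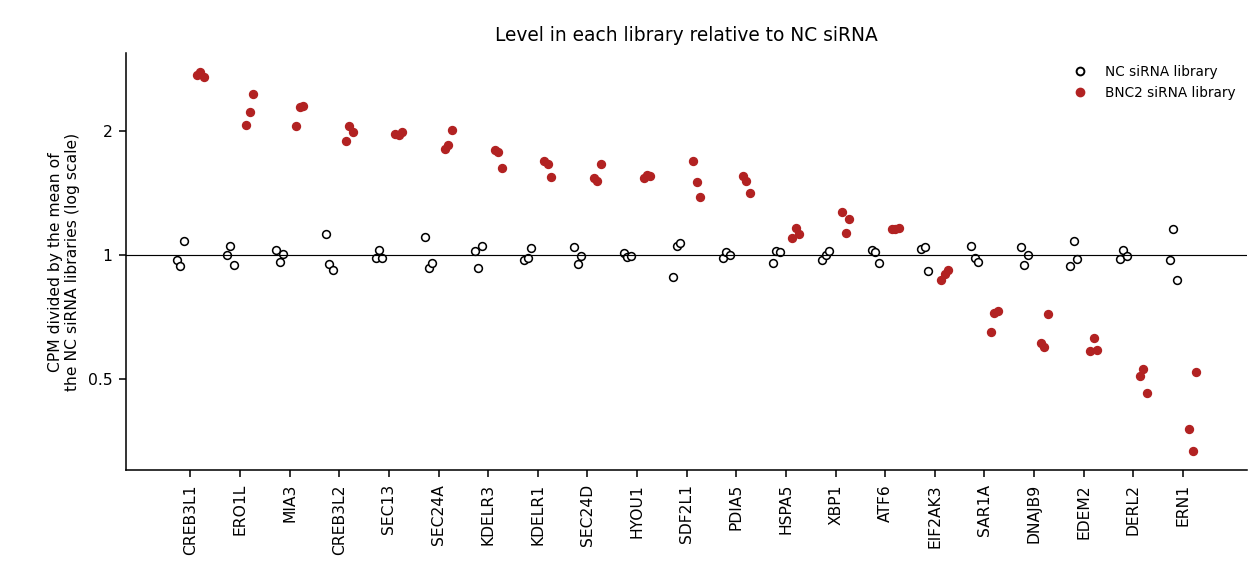
Each point is 1 library and the vertical axis, on a log scale, gives its CPM divided by the mean of the 3 NC siRNA libraries of that gene, for the members with values given by library in the text other than CALR and DERL1. For all genes shown except EIF2AK3 the BNC2 siRNA libraries (filled) lie to 1 side of the NC siRNA libraries (open), from CREB3L1 at 2.74-fold higher to ERN1 at 2.45-fold lower.

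ERAD was the role group in which falls outnumbered rises, with 5 of 8 members called lower (62.5%, against 36.2% of all genes), 1 called higher (12.5%, against 36.6%) and 2 not called. The share called in either direction, 75%, was near the 72.9% of all genes. Its median log2 fold change was -0.31 and its summed level was 705 ± 11.3 CPM with NC siRNA and 630.4 ± 3.40 CPM with BNC2 siRNA. DERL2, one of 3 derlins that help move misfolded proteins out of the ER, fell from 58.0, 61.2 and 59.1 CPM to 30.2, 31.5 and 27.5 CPM. Every BNC2 siRNA library was lower, 1.99-fold on average (log2 fold change -1.0 ± 0.07 SE, adjusted p = 3.1e-09). The related DERL1, in contrast, was the one ERAD member that rose, from 199.6, 194.6 and 194.1 CPM to 234, 235 and 233 CPM (log2 fold change 0.26 ± 0.05 SE, adjusted p = 0.00031). DERL3 was near the filter at 39 to 63 counts a library and was not called (log2 fold change -0.17 ± 0.20 SE, adjusted p = 0.45). EDEM2, which starts the mannose trimming that marks glycoproteins for ERAD, went from 61.9, 71.2 and 64.5 CPM to 38.5, 41.4 and 38.7 CPM. It was 1.67-fold lower without overlap (log2 fold change -0.74 ± 0.07 SE, adjusted p = 1.1e-07). EDEM1, of the same family, was at 95.9 ± 5.61 CPM and 99.3 ± 1.06 CPM and was not called (log2 fold change 0.05, adjusted p = 0.48).

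SYVN1, SEL1L and HERPUD1, which are part of the main membrane ligase complex of ERAD, were each called lower, where 36.2% of all genes were. SYVN1 (HRD1), the ubiquitin ligase, was at 91.9 ± 2.54 CPM with NC siRNA and 71.8 ± 2.17 CPM with BNC2 siRNA (log2 fold change -0.35, adjusted p = 5.2e-05). Its adaptor SEL1L was at 130.5 ± 11.2 CPM and 101 ± 6.43 CPM (log2 fold change -0.37, adjusted p = 0.00018). HERPUD1, a scaffold of that complex with an ERSE-II in its promoter, was at 62.4 ± 3.52 CPM and 51.8 ± 1.88 CPM (log2 fold change -0.27, adjusted p = 0.002). For these 3 genes the groups did not overlap. Other genes tied to that complex did not move in 1 direction. DERL2 and VCP (log2 fold change -0.17) were called lower, and DERL1 and AUP1 (0.72, adjusted p = 7.5e-08) higher. Not called were OS9 (0.11), ERLEC1 (0.06), UBE2J1 (0.10), SELS (0.07) and FAM8A1 (-0.26). Of the channel through which proteins enter the ER, the subunits among the members were not called. SEC61A1, the pore subunit, was at 399 ± 7.42 CPM and 424 ± 4.76 CPM (log2 fold change 0.09 ± 0.05 SE, adjusted p = 0.14). Its BNC2 siRNA libraries, at 421 to 430 CPM, all lay above its NC siRNA libraries, at 391 to 406 CPM. SEC61B was at 111 ± 0.560 CPM and 110.2 ± 2.92 CPM (log2 fold change -0.01 ± 0.06 SE, adjusted p = 0.84). SEC61G, a translocon gene outside the members, was called higher (167 ± 9.36 CPM and 256 ± 10.2 CPM, log2 fold change 0.62, adjusted p = 7.6e-08).

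Of the 11 COPII genes, 7 rose (63.6%, against 36.6% of all genes), 2 fell (18.2%, against 36.2%) and 2 were not called. Their median log2 fold change was 0.38 and their summed level was 1389 ± 43.8 CPM against 1907 ± 61.4 CPM. MIA3 (TANGO1), the receptor that brings procollagen to COPII carriers (chr1:222791439-222841349, plus strand), rose most, from 132.5, 124 and 129 CPM to 264, 294 and 295 CPM. The groups were far apart (2.21-fold, log2 fold change 1.15 ± 0.06 SE, adjusted p = 5.4e-11). SEC13, which with SEC31 forms the outer cage, went from 202, 211 and 202 CPM to 404, 402 and 409 CPM (1.97-fold, log2 fold change 0.98 ± 0.05 SE, adjusted p = 6.5e-11). SEC13 is also a subunit of the nuclear pore. Its cage partner SEC31A rose less, from 221 ± 5.36 CPM to 287 ± 5.94 CPM (1.30-fold, log2 fold change 0.38, adjusted p = 6.4e-06).

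The SEC24 proteins of the inner coat pick the cargo, and 3 of the 4 rose, where 36.6% of all genes were called higher. SEC24A was at 100.8, 84.7 and 87.3 CPM with NC siRNA and at 165, 169 and 183 CPM with BNC2 siRNA (1.89-fold, log2 fold change 0.92 ± 0.07 SE, adjusted p = 4.9e-09). SEC24D was at 78.2, 71.2 and 74.5 CPM and then at 115, 113 and 124 CPM (1.57-fold, log2 fold change 0.65 ± 0.06 SE, adjusted p = 8.9e-08). Neither gene showed overlap between the groups. SEC24C rose 1.39-fold (log2 fold change 0.47, adjusted p = 2.3e-06), and SEC24B was not called (44.1 ± 2.50 CPM and 46.8 ± 2.20 CPM, log2 fold change 0.08, adjusted p = 0.3). As a share of the family's level per kilobase, SEC24A went from 21.7% to 27.3% and SEC24B from 13.2% to 9.32%, each without overlap between libraries. SEC24C went from 36.8% to 33.9% and SEC24D from 28.3% to 29.5%, the latter with overlapping libraries. The 4 SEC24 genes together were at 65.6 ± 3.5 CPM per kb with NC siRNA and 98.8 ± 4.2 CPM per kb with BNC2 siRNA.

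The SEC23 pair, the GTPase-activating partners of SEC24, moved in opposite directions. SEC23A was called lower (125 ± 14.6 CPM and 104 ± 6.59 CPM, log2 fold change -0.27, adjusted p = 0.0052), although the highest BNC2 siRNA library, at 111.0 CPM, reached the lowest NC siRNA library, at 110.5 CPM. SEC23B was called higher (116 ± 2.69 CPM and 134 ± 3.96 CPM, log2 fold change 0.21, adjusted p = 0.003, with 0.13 under scaling by total counts alone). The share of SEC23A per kilobase was 42.7% to 48.1% in NC siRNA libraries and 37.2% to 38.6% in BNC2 siRNA libraries. Their sum was 70.8 ± 4.2 CPM per kb and 71.3 ± 3.0 CPM per kb, with overlapping libraries. These shares and sums were not tested. SAR1A, the more abundant of the 2 GTPases that start coat assembly, had the largest COPII fall, from 242, 227 and 222 CPM to 150.0, 166.5 and 169 CPM. It was 1.42-fold lower without overlap (log2 fold change -0.51 ± 0.06 SE, adjusted p = 1.2e-06). SAR1B was at 47.1 ± 1.28 CPM and 46.0 ± 1.79 CPM and was not called (log2 fold change -0.03 ± 0.07 SE, adjusted p = 0.66). The share of SAR1A per kilobase went from 84.4% ± 0.49 to 79.5% ± 1.2. SAR1B and SEC24A are neighbours on chromosome 5 and lie head to head, with annotated extents that overlap by 487 bases on opposite strands. SEC24A rose and SAR1B was not called in these strand-specific counts.

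**Figure D3:**
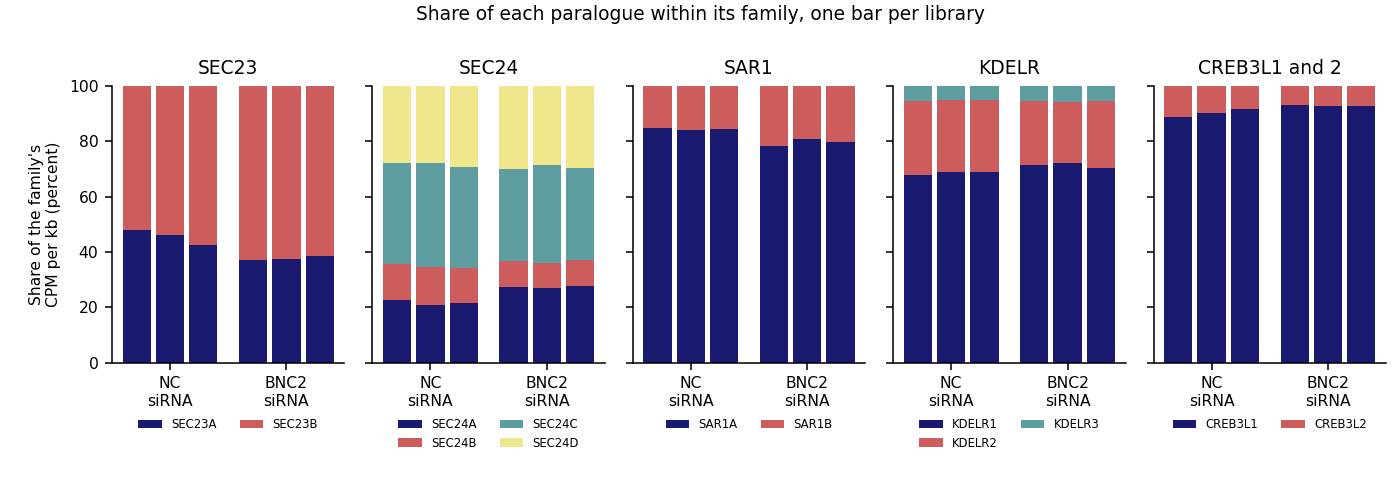
Each bar is 1 library and shows, in percent, how the summed level per kilobase of a family (CPM divided by transcript length) divides among its genes. SEC23A and SAR1A take smaller shares in the BNC2 siRNA libraries and SEC24A a larger one, with no overlap between groups for these 3.

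The KDEL receptors, which return escaped ER residents from the Golgi, formed the role group with the highest median log2 fold change (0.71), and all 3 rose without overlap. Of all genes, 36.6% were called higher and 37.7% lay above without overlap. KDELR1 went from 439, 445 and 471 CPM to 766, 753 and 699.5 CPM (1.64-fold, log2 fold change 0.71 ± 0.06 SE, adjusted p = 8.5e-09). KDELR3 went from 38.4, 35.0 and 39.5 CPM to 67.5, 67.0 and 61.1 CPM (1.73-fold, log2 fold change 0.79 ± 0.07 SE, adjusted p = 4.4e-08). KDELR2 rose 1.38-fold, from 311 ± 4.97 CPM to 429 ± 15.5 CPM (log2 fold change 0.46, adjusted p = 7.3e-07). Per kilobase, the order KDELR1, KDELR2, KDELR3 was the same in all 6 libraries, with mean shares of 68.5%, 26.3% and 5.22% with NC siRNA and 71.2%, 23.0% and 5.75% with BNC2 siRNA.

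Members were also set against the promoter letters shown above. Of the 10 with an ERSE or ERSE-II, 7 were called higher (70.0%), 1 lower (10.0%) and 2 not, and the median log2 fold change was 0.26. Of the 28 that had a promoter entry and none of the 3 motifs, 14 were called higher (50%), 8 lower (28.6%) and 6 not, with a median of 0.11. The background over all genes was 36.6% higher and 36.2% lower, and the share called in either direction was 80.0% and 78.6% in these classes against 72.9%. The changes of members with an ERSE or ERSE-II lay between -0.27 (HERPUD1) and 0.64 (HYOU1), so that the members with the largest changes in either direction, CREB3L1, ERO1L, MIA3 and ERN1, were outside this class. Of the 5 with a UPRE, HYOU1, SEC24A and KDELR3 were called higher, SEC23A lower and TXNDC5 not. These counts describe small groups and were not tested.

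Other genes of the same pathways were counted from 6 lists outside the 47, of which 204 of 212 genes were tested. With BNC2 siRNA 94 were called higher (46.1%, against 36.6% of all genes), 55 lower (27.0%, against 36.2%) and 55 not, and the median log2 fold change was 0.10. The share called in either direction, 73.0%, was that of the background (72.9%). In the list of the COPI coat, which carries KDEL receptors back to the ER, 11 of 17 were called higher (64.7%) and 1 lower (5.88%), with a median of 0.35. The largest called rises with at least 5 CPM there were COPG2 (1.30), GBF1 (0.75) and COPZ1 (0.75), and the one fall was ARFGAP1 (-0.20). Of 33 further translocon, signal peptidase and oligosaccharyltransferase genes, 20 were called higher (60.6%) and 7 lower (21.2%), the median being 0.25, with SRP9 (0.74), OSTC (0.74) and SPCS3 (0.69) rising most at that level. The falls there included SEC61A2 (-1.67), a paralogue of the uncalled SEC61A1, TRAM2 (-1.63), a translocon-associated protein linked to collagen synthesis, and SEC11C (-0.70).

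In the lists that follow, genes are again named only from 5 CPM in the higher group. Of 43 other folding factors, 20 were called higher (46.5%, against 36.6% of all genes) and 9 lower (20.9%, against 36.2%), with a median of 0.09. The share called, 67.4%, was below the 72.9% of all genes. GANAB, the catalytic subunit of glucosidase II that trims glycans for CALR and CANX, rose 5.58-fold from 178 ± 8.92 CPM to 991 ± 36.0 CPM (log2 fold change 2.48). FKBP10 (1.55), a collagen chaperone, and CNPY4 (1.46) followed, while ERO1LB (-1.57), the paralogue of ERO1L, RCN2 (-1.55) and DNAJC1 (-0.43) fell most. Of 52 COPII accessory and traffic genes, 22 were called higher and 16 lower (median 0.08), or 42.3% and 30.8% against 36.6% and 36.2% of all genes. The cargo receptor LMAN1 (1.11), the Golgi tether GOLGA2 (1.42) and TMED7 (1.43) rose, and TMED10 (-1.42), BNIP1 (-0.83) and C22orf25 (-1.80, now TANGO2) fell. Among 33 other ERAD genes 12 were called higher and 11 lower (median 0.06), with ANKZF1 (1.17) and EDEM3 (0.72) among those rising and MAN1A2 (-1.19), RNF185 (-1.05) and UFD1L (-0.65) falling most among those with at least 5 CPM. The shares called in this list, 36.4% higher and 33.3% lower, were near the background of 36.6% and 36.2%.

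Of 26 further regulators and targets of the UPR, 9 were called higher and 11 lower (median -0.10). These shares, 34.6% and 42.3%, were close to the background of 36.6% and 36.2%. MBTPS2 (0.87), the protease that cleaves ATF6 and the CREB3 family in the Golgi, NUCB2 (0.60) and TRAF2 (0.54), which binds active ERN1, rose most among those with at least 5 CPM. NUPR1 (-1.91), CHAC1 (-1.70) and ASNS (-1.57), all known targets of ATF4 downstream of EIF2AK3, fell most. ATF4 itself was at 183 ± 8.73 CPM and 162 ± 9.80 CPM (log2 fold change -0.17, adjusted p = 0.021), and DDIT3 (CHOP), also downstream of it, had a log2 fold change of -1.29 (adjusted p = 9.6e-08). PPP1R15A (GADD34), which reverses the translational arm, had one of -1.53 (adjusted p = 6.6e-13), and STC2 one of -1.55 (adjusted p = 6.3e-13). Targets of ATF4 in the list that were not called were TRIB3 (log2 fold change -0.11, adjusted p = 0.32), SESN2 (-0.04, adjusted p = 0.69) and ADM2 (-0.21, adjusted p = 0.39). ATF4 and these 6 genes were picked after their values had been seen.

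**Figure D4:**
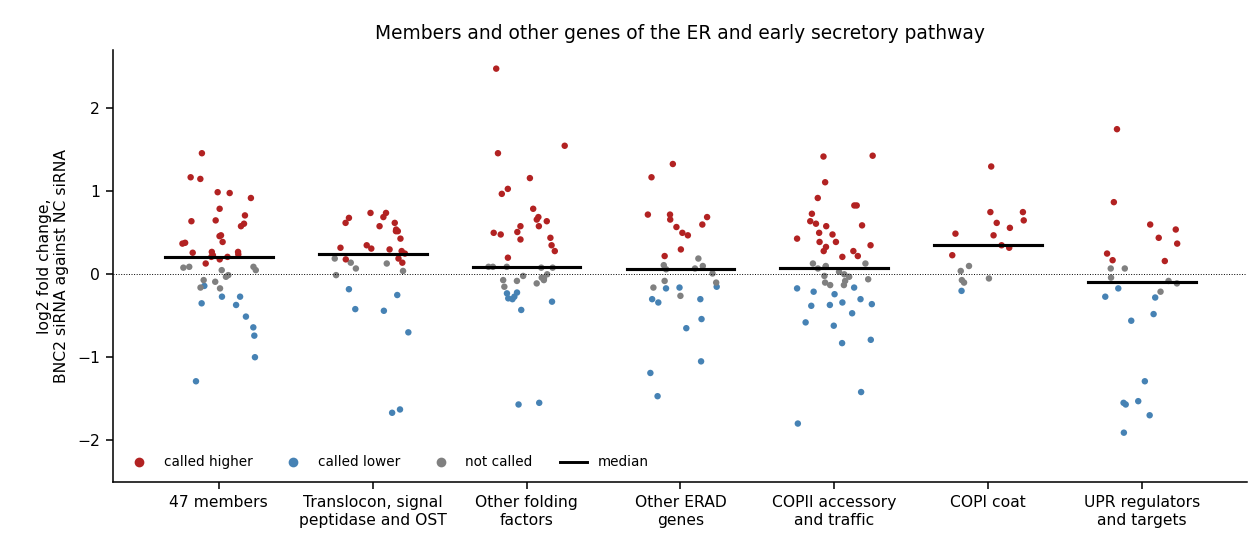
The vertical axis gives the log2 fold change of BNC2 siRNA against NC siRNA for each gene tested, with the 47 members at the left and 6 lists of other ER and early secretory genes beside them (red, called higher; blue, called lower; grey, not called; black line, median). The COPI list has the highest median at 0.35 and the list of UPR regulators and targets the lowest at -0.10.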

How the data were processed

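The authors isolated poly(A) RNA, prepared libraries with KAPA RNA HyperPrep kits, sequenced single-end reads and aligned them to hg19 with STAR (v2.6.1d, per the submitters' processing notes and the methods) using the iGenomes UCSC annotation. The deposited values are read counts per gene without normalisation, and for all 23346 genes they are identical to the reverse-strand column of the library tables. Reads that were unmapped, on no gene, on several genes or in several places (37.7% to 41.1% of a library's reads) entered neither library sizes nor tests, so genes with near-identical copies or overlaps on 1 strand are undercounted.

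A gene was tested if more than 1 CPM was reached in at least 3 of 6 libraries, which held for 12186 genes. Groups were compared in R 4.3.3 with edgeR 4.0.16 (TMM scaling, quasi-likelihood test, no replicate block) in place of the likelihood ratio test of the study, which was run as an alternative. Adjusted p-values follow Benjamini and Hochberg over all 12186 genes. The tests behind them set the difference between groups against the spread between these 6 libraries. With 3 libraries against 3, the smallest p-value an exact permutation test on 1 gene allows is 0.1. SE was taken as the absolute log2 fold change over the root of edgeR's F, CPM values are TMM-scaled, and ± gives the SD unless marked SE. Totals of 16093978 to 18246254 counts per library set the precision, with a common biological coefficient of variation of 6.16%, and counting error is part of every SE. The scripts were tested on simulated data. CPM per kb divides CPM by the length of the canonical GENCODE release 44 transcript lifted to GRCh37, and 21476 of 23346 symbols matched. Same-numbered libraries did not deviate together (correlations -0.208, -0.081 and -0.13), and libraries of unlike number gave -0.068 to 0.176. Such correlations cannot show whether same-numbered libraries were prepared together.

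The members, roles and the other lists were chosen with earlier results of these data known. Every member was named in its role group. Values in every library were given for HSPA5, XBP1, ATF6, ERN1, EIF2AK3, called members with a log2 fold change of at least 0.58 in size, and the largest called rise and fall of each role group. Of each other list, the 3 largest called rises and falls were named where the higher group averaged at least 5 CPM, except that 1 gene is not reported here. The alternatives were the likelihood ratio test, DESeq2 1.42.0, its size factors, total counts only, filterByExpr, no filter on low counts, a replicate block, both strands, and leaving out each library. Protein sequences were not used here.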

Additional observations from a re-analysis of the deposited data

Results flagged for a closer look

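Reads on the strand opposite to a gene are left out of the gene counts. They were more numerous in every BNC2 siRNA library than in any NC siRNA library for 2 of the 47 members, less numerous in every one for 7, and overlapped for 38. Over all 12186 genes tested the shares were 3.01% above and 21.5% below. At least 10 such reads were found for 45 members and for 8825 of the genes tested, and among the latter the shares were 3.89% and 27.9%. The difference from the members was not tested. Opposite to MIA3 there were 99, 90 and 75 reads with NC siRNA and 196, 213 and 214 with BNC2 siRNA, a mean of 5.18 and 12.0 CPM by total counts. Opposite to CREB3L1 there were 20, 11 and 19 reads with NC siRNA and 31, 56 and 38 with BNC2 siRNA, a mean of 0.986 and 2.39 CPM. Both genes also rose on their own strand, by log2 fold changes of 1.15 and 1.46. The 7 members with fewer such reads were HSP90B1 (154 to 189 against 66 to 132), HSPA5 (132 to 152 against 53 to 120), PDIA4 (61 to 80 against 42 to 55), and MANF, CRELD2, EDEM2 and HERPUD1, which had at most 19 reads in a library.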

How the results depend on the processing

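Of the 47 members, 38 kept their direction and their side of the threshold in all 14 alternatives. Scaling by total counts only, which lowers the median log2 fold change of all genes by 0.076, moved the median of the members from 0.21 to 0.13 and that of the other pathway genes from 0.10 to 0.03. Under this scaling PDIA3 (-0.03) and EDEM1 (-0.03) changed direction, HSPA5, PDIA4 and ATF6 lost their calls, and EIF2AK3 (-0.24) and PDIA6 (-0.14) were called lower, the latter also with both strands counted (-0.13). Leaving out each library gave -0.00011 to 0.08 for EDEM1, which changed direction without NC siRNA replicate 3, and -0.04 to 0.0035 for SEC61B, which did so without BNC2 siRNA replicate 3. SEC61B was also above 0 with no filter on low counts (0.02). None of PDIA3, EDEM1 and SEC61B was called in any fit, and the cause was not tested. When each library was left out in turn, the median ranged from 0.16 to 0.22 for the members and from 0.08 to 0.13 for the other pathway genes. Members called numbered 23 to 26 higher and 9 to 12 lower over the alternatives. With a replicate block 25 were called higher and 9 lower, as PDIA4 (0.13) and DNAJB11 (-0.14) lost their calls, and no other member's call changed with it. Without division by length, the difference in share became 6.83 percentage points for SEC24A (5.60 with it) and 5.34 for CREB3L1 (2.57 with it). The siRNA mix left 64.6% of the BNC2 mRNA, and the design has 1 cell line, 1 siRNA mix and 1 time point. Low counts limit DERL3, TXNDC5 and ERN1 most.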
